A study of Mus musculus with 6 samples.

Results

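The TAM family consists of 3 receptor tyrosine kinases, Tyro3, Axl and Mertk, and their vitamin K-dependent ligands Gas6 and Pros1 (protein S). These 5 genes, chosen by name, were followed among the 22281 features of the count table of a Drop-seq study of adult mouse hearts. Drop-seq captures single cells in droplets with barcoded beads and counts transcripts as unique molecular identifiers (UMIs). YAP5SA is a form of the Hippo pathway effector YAP that the Lats kinases cannot phosphorylate. The YAP5SA group carried the YAP5SA transgene together with Myh6-MCM, a tamoxifen-inducible Cre driven by the cardiomyocyte gene Myh6. The Control group carried Myh6-MCM alone, and both groups were given tamoxifen. The Cre driver and the drug are thus shared, and the transgene is the stated difference between the groups. Hearts were dissociated with collagenase, and each genotype had 1 library of cardiomyocytes enriched by settling and 2 libraries of dissociated cardiac tissue, called the enriched and the tissue libraries below. Nothing in the labels gives the number of hearts behind a library, so p-values measure the spread between these libraries only.

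Gas6 and protein S bridge phosphatidylserine on the surface of dying cells to the TAM receptors of a neighbouring cell. In macrophages Mertk is best known for driving the engulfment of apoptotic cells, and all 3 receptors dampen innate immune signalling. In fibroblasts and in many tumour cells Axl is the dominant receptor and Gas6 its main ligand, and Axl is a known target of YAP and its DNA-binding partners, the TEAD factors. Protein S is also a plasma anticoagulant, a cofactor of activated protein C.

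The libraries held 1405 to 5860 cells and 3382656 to 13483791 UMIs, and shared at most 2 cell barcodes between any pair. The Control enriched library held 10 fibroblasts, 7 epicardial cells and no macrophages or monocytes, so the Control group entered the fits of macrophages, monocytes and epicardial cells with 2 libraries. The median share of mitochondrial transcripts per cell was 13.4% and 16.0% in the Control enriched and Control tissue-3 libraries and between 2.31% and 6.60% in the other 4. The members had 4853 UMIs (Axl), 121 (Tyro3), 1637 (Mertk), 9026 (Gas6) and 2779 (Pros1). Cell types are the authors' own cluster names: CM1 to CM3 and YAP5SAcm for cardiomyocytes, CF1 to CF4 for fibroblasts, Mac1 to Mac4 for macrophages, Mo for monocytes, EC for endothelial, EndoC for endocardial, EpiC for epicardial and SMC for smooth muscle cells. Every marker of fibroblasts (12 of 12) and macrophages (14 of 14) had UMIs in the class of that name in each library, except Pdgfra and Postn among the 10 fibroblasts of the Control enriched library. A sum per class cannot tell fewer expressing cells from less RNA per cell. The tissue libraries are called by the numbers of the cell table, 2 and 3 for Control and 1 and 2 for YAP5SA.

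In the mouse genome (GRCm38, GENCODE vM21) Axl lies on the minus strand at chr7:25757273-25788705, Tyro3 on the plus strand at chr2:119797733-119818104, and Mertk on the plus strand at chr2:128698956-128802894. Gas6 lies on the minus strand at chr8:13465374-13494490 and Pros1 on the plus strand at chr16:62854307-62929346. All 5 are protein-coding genes. Gas6 overlaps Tmem255b on the other strand, which had 33 UMIs in cardiomyocytes against 2539 of Gas6. Mertk overlaps 2 predicted genes, Gm23172 on its own strand with 51 UMIs in all cells, and Gm14011 on the other strand. Whether counting used strand is not given in the sources used here.

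The promoters of the 2 members that rose in cardiomyocytes are shown because their changes open the results. They are the 250 bases before the RefSeq start (GRCm38.p6), with the TEAD core motif GGAATG, searched on both strands, in capitals where it occurs. The Axl stretch is chr7:25788734-25788983 and the Gas6 stretch chr8:13494536-13494785, both on the minus strand.
Axl: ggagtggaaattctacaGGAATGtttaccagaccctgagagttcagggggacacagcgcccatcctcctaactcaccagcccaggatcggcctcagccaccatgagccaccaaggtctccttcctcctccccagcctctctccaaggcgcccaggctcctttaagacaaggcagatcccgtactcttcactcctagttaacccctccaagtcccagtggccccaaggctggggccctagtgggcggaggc
Gas6: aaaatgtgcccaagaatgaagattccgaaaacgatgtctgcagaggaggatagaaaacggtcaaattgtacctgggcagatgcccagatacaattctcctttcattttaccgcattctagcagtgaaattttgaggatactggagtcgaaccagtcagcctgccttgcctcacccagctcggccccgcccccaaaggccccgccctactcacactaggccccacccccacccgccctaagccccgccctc
In the 300 bases from 250 before to 50 after the start, Axl held 1 copy of the motif, 233 bases before the start on the strand of the gene. The same window of Gas6, Tyro3, Mertk and Pros1 held none. Of all 32851 RefSeq promoters of this length, 14.66% held the motif on either strand. The match is a description of the sequence, and binding was not measured here.

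In cardiomyocytes, the cells in which the Cre driver is active, the receptor Axl and the ligand Gas6 rose with YAP5SA. Values are UMIs per 1000000 UMIs of the class in a library (CPM). Axl measured 1.39 CPM in the Control enriched library and 7.93 and 4.38 in the Control tissue libraries. In the YAP5SA hearts it measured 44.7 CPM in the enriched library and 99.1 and 129 in the tissue libraries. The groups did not overlap, and the lowest YAP5SA library was the enriched one. After scaling between libraries, the log2 fold change of Axl was 3.58 ± 0.34 (SE, 3 libraries per genotype), an 11.9-fold rise, with an edgeR quasi-likelihood adjusted p of 0.00215 (Benjamini-Hochberg over the 10890 genes tested). Gas6 measured 53.8 CPM in the Control enriched library and 83.4 and 50.7 in the Control tissue libraries. It measured 177 CPM in the YAP5SA enriched library and 424 and 391.95 CPM in the YAP5SA tissue libraries. Again every YAP5SA library stood above every Control library, with a log2 fold change of 1.496 ± 0.31 (SE), 2.82-fold, and an edgeR adjusted p of 0.0162. Of the 5 members 3 passed the filter on low counts in this class, and 2 of those 3 were called, both higher. The filter keeps a gene with enough counts in the libraries of 1 genotype alone. Axl and Pros1 passed it through their higher YAP5SA libraries, so the number called as higher is not independent of the filter. For scale, 26.6% of all genes tested in cardiomyocytes were called, and 13.9% were called as higher.

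**Figure D1:**
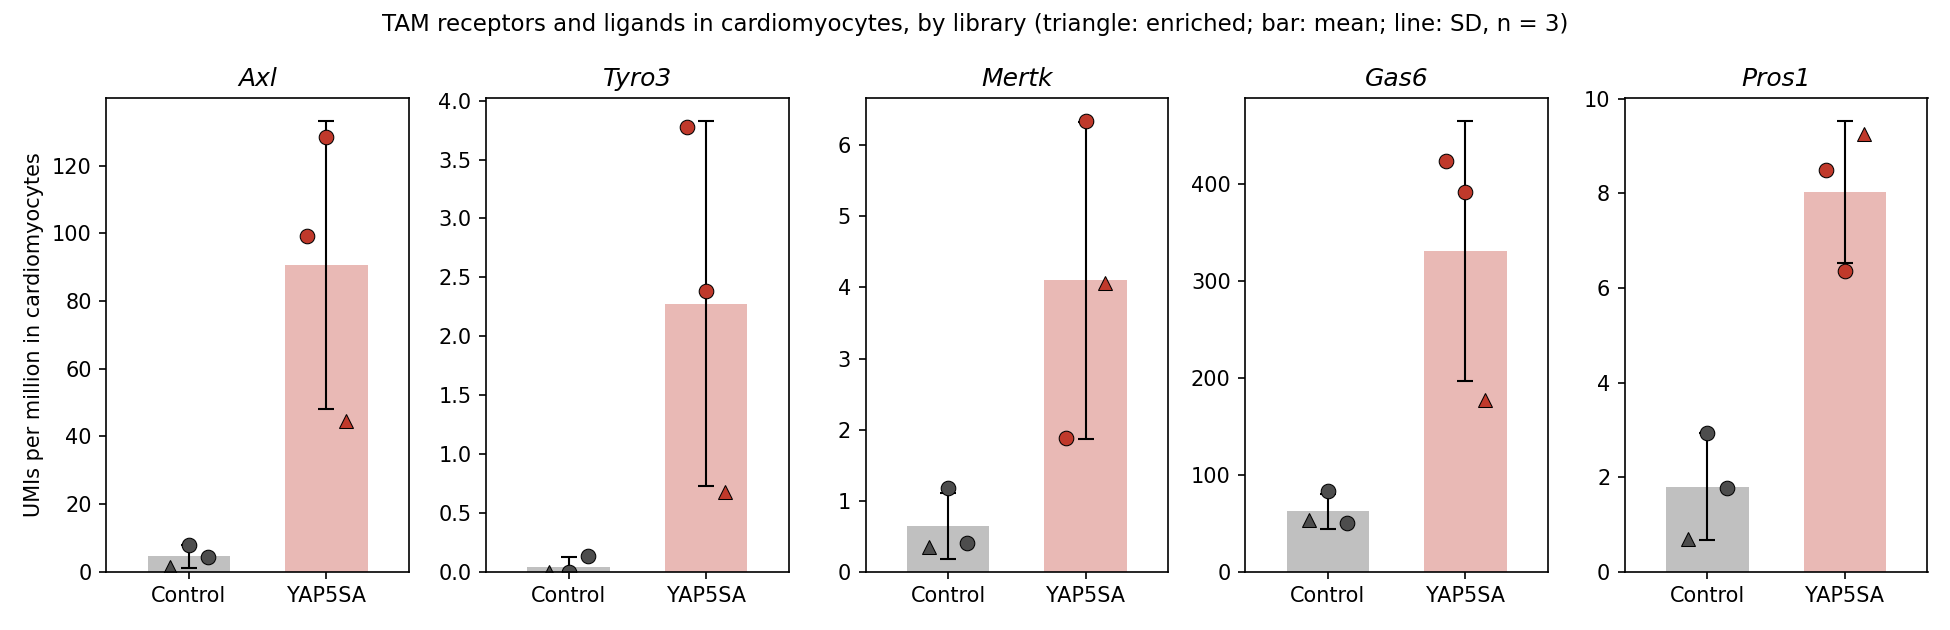
Level of the 5 genes in cardiomyocytes (CPM, linear axes from 0) in each of the 6 libraries, with bars for the mean and lines for the SD over 3 libraries per genotype and triangles for the enriched libraries. Axl lies between 1.39 and 7.93 in the Control and between 44.7 and 129 in the YAP5SA libraries, and Gas6 between 50.7 and 83.4 against 177 to 424.

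The second ligand, Pros1, measured 0.694, 2.94 and 1.78 CPM in the Control enriched and tissue libraries, from 2 to 13 UMIs each. It measured 9.25, 8.49 and 6.35 CPM in the YAP5SA libraries, from 8 to 41 UMIs each. The groups did not overlap, but the log2 fold change of 1.38 ± 0.57 (SE) did not pass, with an edgeR adjusted p of 0.112. None of the 3 members tested had overlapping groups, in a class where the groups of 48.2% of all tested genes did not overlap. Axl and Pros1 had passed the filter through their YAP5SA libraries, so this count is not read as a result. With library totals as the only scaling, Pros1 passed at a log2 fold change of 2.22 (edgeR adjusted p = 0.0212), but that scaling moved the median of all genes in cardiomyocytes from 0.04 to 0.87 on the log2 scale.

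Mertk and Tyro3 did not pass the filter in cardiomyocytes and have no test there. Mertk had 8 UMIs in 2817 Control and 28 in 1629 YAP5SA cardiomyocytes, which gives 0.644 ± 0.461 and 4.10 ± 2.23 CPM (SD, n = 3 libraries). Tyro3 had 1 and 10 UMIs, or 0.0456 ± 0.0789 and 2.28 ± 1.55 CPM. For both receptors every YAP5SA library lay above every Control library, on counts of 2 to 18 UMIs for Mertk and 3 to 4 for Tyro3 in a YAP5SA library. These levels are not scaled between libraries. After scaling, the groups of 48.2% of all genes tested in this class did not overlap.

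The share of cardiomyocytes with a UMI of Axl was higher in each YAP5SA library than in any Control library. After each cell was thinned to 1000 UMIs, so that depth was equal, 0.0953%, 0.179% and 0.519% of Control cardiomyocytes carried an Axl UMI, in the enriched, tissue-2 and tissue-3 libraries. In the YAP5SA enriched library 3.38% did (exact Clopper-Pearson 95% interval 2.29 to 4.79), and in the YAP5SA tissue libraries 13.5% (9.81 to 18.0) and 12.7% (8.76 to 17.5). Without thinning the Control shares were 0.375%, 3.99% and 2.56% and the YAP5SA shares 12.4%, 19.8% and 28.0%. No class here is certain to lack Axl, so the Control cardiomyocytes stand as the lowest reference. Intervals cover counting error only. For Gas6 the thinned share was 6.14% to 6.96% in the 3 Control libraries, and 15.9%, 31.2% and 30.2% in the YAP5SA enriched and tissue libraries. Thinning left out between 16 and 116 shallow cardiomyocytes per library.

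The cardiomyocyte class is made of different clusters in the 2 genotypes. The cluster YAP5SAcm held 481 of 1004, 212 of 343 and 203 of 282 cardiomyocytes of the YAP5SA enriched and tissue libraries, and 16 of 1068, 50 of 576 and 33 of 1173 of the Control libraries. Axl differed between these clusters. In YAP5SAcm it measured 37.0, 47.9 and 35.8 CPM in the Control libraries, on 1, 7 and 3 UMIs, and 76.9, 133 and 170 CPM in the YAP5SA libraries. In CM1 it measured 3.69 ± 3.21 CPM in the Control and 3.18 ± 3.04 CPM in the YAP5SA libraries (SD, n = 3), and in CM3 3.91 ± 3.26 and 25.3 ± 7.26 CPM. In CM2 it measured 2.38 ± 2.81 CPM in the Control libraries, on 2 UMIs, and 28.5 ± 32.9 CPM in the YAP5SA libraries, from 0 to 64.5 CPM on 11 UMIs. The Axl call was lost when YAP5SAcm was fitted alone (log2 fold change 1.41, edgeR adjusted p = 0.11) and when its cells were left out (1.54, edgeR adjusted p = 0.227). Axl thus had its highest cardiomyocyte level in the cluster that took up a larger share of the YAP5SA cells, and too few UMIs in CM1, CM2 and CM3 for a fit of each.

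The mean level of Gas6 was higher with YAP5SA in each of the 4 cardiomyocyte clusters. It went from 56.8 ± 15.7 to 199 ± 88.2 CPM in CM1, from 57.5 ± 32.6 to 180 ± 52.8 CPM in CM2, and from 89.6 ± 27.0 to 258 ± 169 CPM in CM3 (SD, n = 3 libraries per genotype). In YAP5SAcm it went from 118 ± 72.9 to 390 ± 138 CPM. The log2 fold changes of the 4 clusters fitted alone were 1.29, 1.29, 1.18 and 1.41 (CM1, CM2, CM3, YAP5SAcm), close to each other and to the value of the whole class, yet none passed, with edgeR adjusted p between 0.117 and 0.307. The Gas6 call in the whole class was also lost without the Control tissue-3 library (log2 fold change 1.31, edgeR adjusted p = 0.0523), without YAP5SA tissue-1 (1.43, 0.0796), without YAP5SA tissue-2 (1.49, 0.0971) and without the YAP5SAcm cells (1.25, 0.151).

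Axl and Gas6 UMIs were found together in some YAP5SAcm cells. Both were detected in 71 of 481, 42 of 212 and 57 of 203 YAP5SAcm cells of the YAP5SA enriched and tissue libraries, and in 0 of 16, 2 of 50 and 1 of 33 of the Control libraries. In the same order, Axl was detected in 105, 62 and 78 and Gas6 in 247, 133 and 132 of the YAP5SA cells. In the Control cells Axl was detected in 1, 5 and 2 and Gas6 in 1, 16 and 8. Whether the 2 genes met in a cell more often than their separate counts would give was not tested. These counts are not corrected for depth or for droplets with more than 1 cell.

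**Figure D2:**
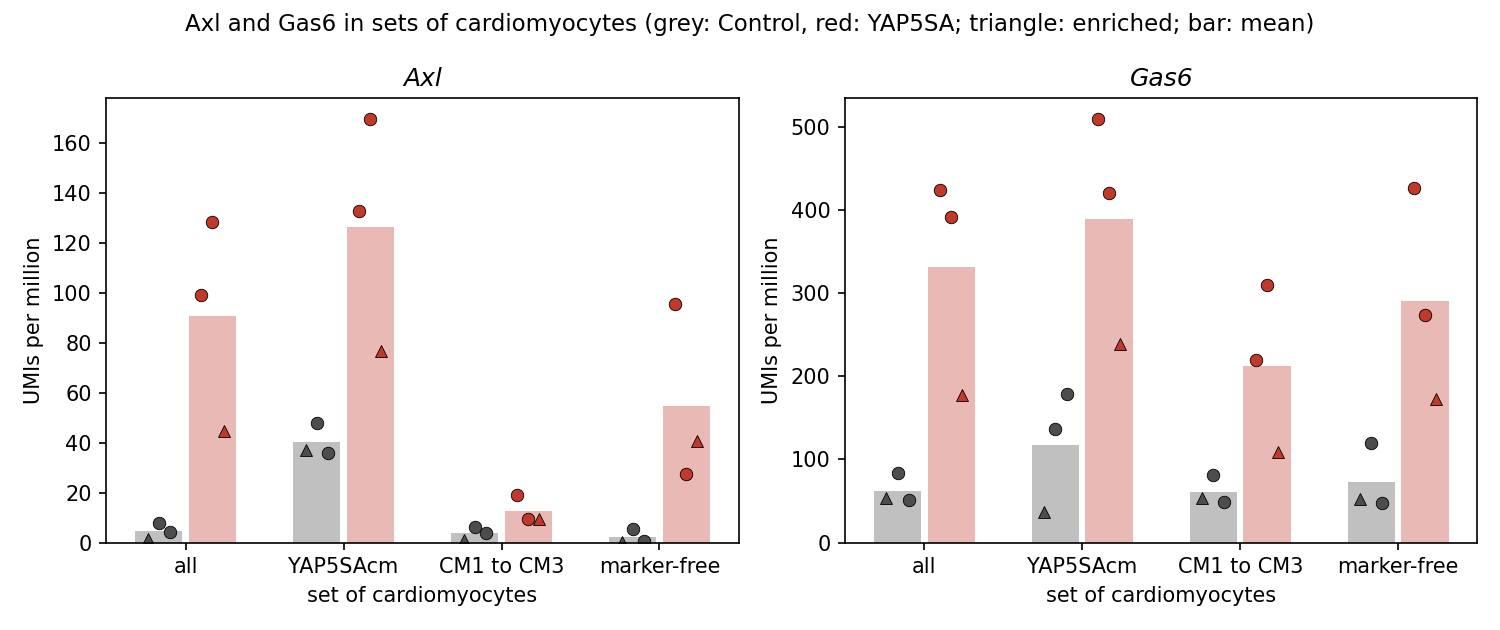
Axl and Gas6 (CPM, linear axes from 0) in all cardiomyocytes, in the cluster YAP5SAcm, in the clusters CM1 to CM3 pooled, and in cardiomyocytes free of fibroblast and macrophage marker UMIs, with a point per library and bars for the mean of 3 libraries. For Axl the YAP5SA points reach 170 in YAP5SAcm and stay at or below 19.1 in CM1 to CM3 taken as 1 pool. For both genes the YAP5SA points lie above the Control points in both sets. In the pool Axl rests on 20, 6 and 3 UMIs in the YAP5SA enriched, tissue-1 and tissue-2 libraries.

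Before scaling between libraries, the summed macrophage and smooth muscle markers were also higher in YAP5SA cardiomyocytes, while the fibroblast sums of the 2 genotypes overlapped. These sums are CPM without that scaling. Scaling moved Axl from 7.93 to 8.88 CPM in Control tissue-2 and from 99.1 to 70.1 CPM in YAP5SA tissue-1. The same factors would close the gap between the macrophage sums of these 2 libraries, 300 and 427 CPM. The summed fibroblast markers (12 of 12 with UMIs in each library) ranged from 143 to 670 CPM in Control and from 630 to 813 CPM in YAP5SA cardiomyocytes. The summed macrophage markers had 10 of 14 detected in the Control enriched library, with Adgre1, Fcgr1, Cx3cr1 and Folr2 at 0, and 14 of 14 in the others. Their sum ranged from 22.9 to 300 CPM in Control and from 427 to 1053 CPM in YAP5SA cardiomyocytes. Set against fibroblasts of the same library, fibroblast markers in YAP5SA cardiomyocytes stood at 1.46% to 1.89% of their fibroblast level, and Axl at 15.4% to 44.3% of its own. Set against macrophages, macrophage markers stood at 1.76% to 4.14% of their macrophage level, and Gas6 at 70.5% to 167% of its own.

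The smooth muscle list (5 genes, all with UMIs) ranged from 124 to 342 CPM in Control and from 2980 to 3501 CPM in YAP5SA cardiomyocytes, most of it from Acta2 at 2859 to 3210 CPM. Myh11, the smooth muscle myosin, stood at 34.97 to 77.0 CPM in YAP5SA cardiomyocytes against 1466 to 2269 CPM in the smooth muscle cells of those libraries. Set against smooth muscle cells of the same library, the list stood at 28.1% to 53.4% of its smooth muscle level in YAP5SA cardiomyocytes and at 1.59% to 4.33% in Control. Axl stood at 35.1% to 86.7% of its smooth muscle level in YAP5SA and at 0.894% to 7.19% in Control cardiomyocytes. The members of the list did not move alike. Tagln measured 0.694 to 3.23 CPM in Control and 40.8 to 178 CPM in YAP5SA cardiomyocytes, while Smtn measured 47.0 to 89.6 CPM in Control and 30.2 to 34.9 CPM in YAP5SA. Cnn1 was highest in Control tissue-2 at 122 CPM, against 0.347 and 0.274 CPM in the other Control and 8.49 to 27.0 CPM in the YAP5SA libraries. The part of smooth muscle transcripts in the Axl change was not tested.

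In cardiomyocytes with no UMI of any fibroblast or macrophage marker, Axl measured 0.407, 5.32 and 0.802 CPM in the Control libraries and 40.7, 95.5 and 27.4 CPM in the YAP5SA libraries, on 1, 2, 1, 35, 13 and 1 UMIs. The log2 fold change of Axl in these cells was 4.92 (edgeR adjusted p = 0.00114), on few UMIs. Gas6 measured 52.5, 120 and 48.1 CPM against 173, 426 and 274 CPM in the same cells (log2 fold change 1.42, edgeR adjusted p = 0.0369). Few such cells were left in the YAP5SA tissue libraries, 77 and 24, against 136 and 331 in the Control tissue libraries.

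Outside cardiomyocytes no member was called in any class. The estimates by class are shown in the plot of log2 fold changes. Fibroblasts had 5 members tested and 0 called, where 2.23% of all genes were called. No member there had an edgeR p under 0.05 before adjustment, which 852 of 10727 genes had. In the other classes 4 of the members' fits had such a p. These were Mertk in macrophages and Gas6 in endothelial, endocardial and smooth muscle cells, whose adjusted values are given below with their levels. In the other classes edgeR called no gene at all (0.0% in macrophages, 0.0% in monocytes, 0.0% in endothelial, 0.0% in endocardial, 0.0% in epicardial and 0.0% in smooth muscle cells). At an edgeR p under 0.05 before adjustment there were 1181 of 11714, 275 of 3513, 544 of 5355, 105 of 1996, 104 of 1824 and 47 of 999 genes in these classes. DESeq2 called 97, 23, 33, 1, 0 and 0. DESeq2 called no member in any of the 7 classes.

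**Figure D3:**
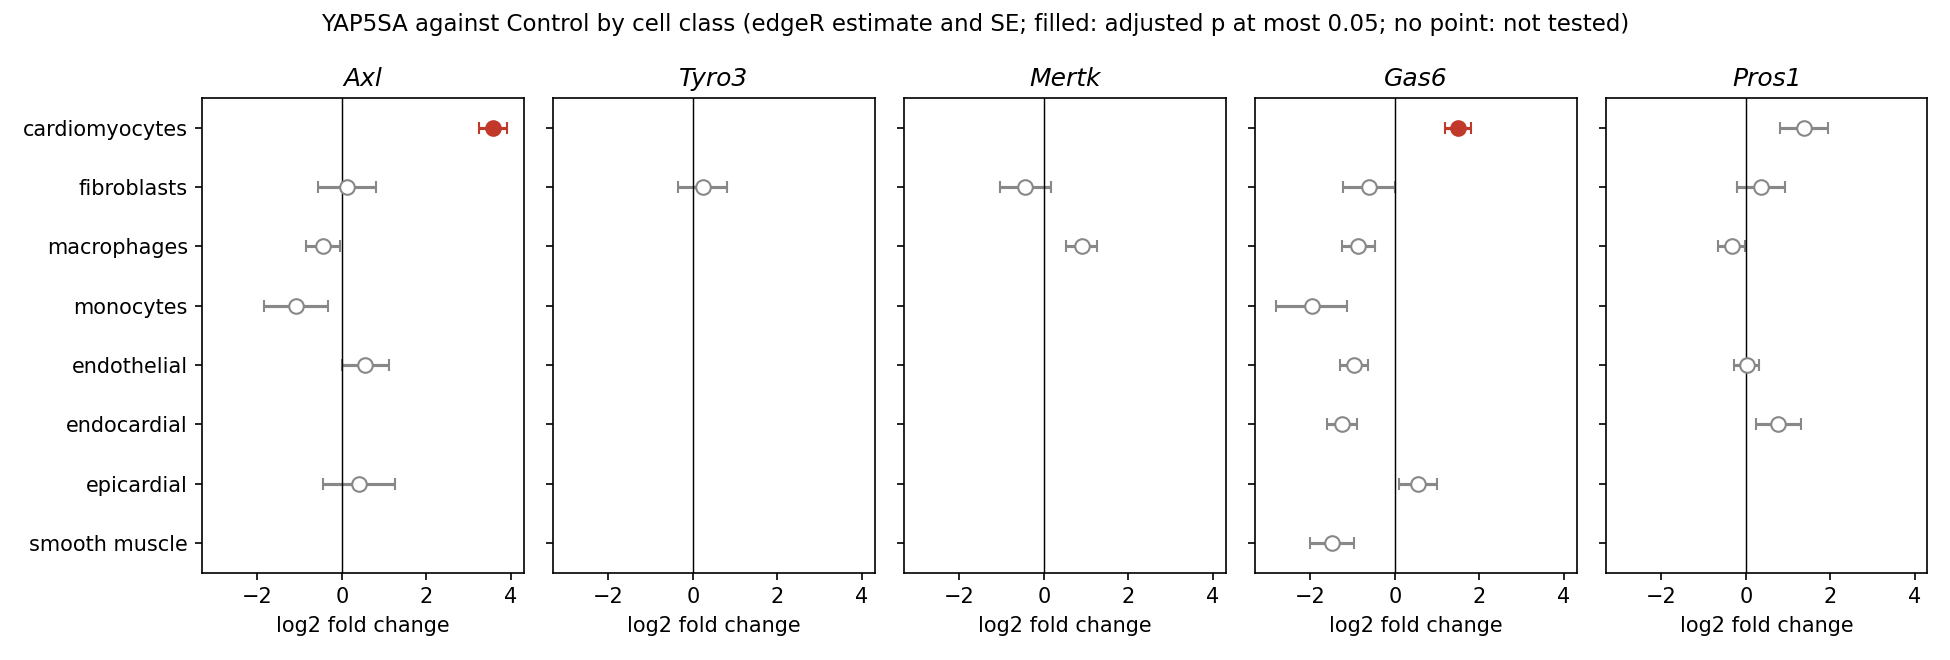
Log2 fold change of YAP5SA against Control for each member and cell class (edgeR estimate with its SE), filled where the adjusted p is at most 0.05 and left blank where the gene did not pass the filter. Axl and Gas6 in cardiomyocytes are the only filled points, and the Gas6 estimates of 6 of the other 7 classes lie below 0.

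Fibroblasts gave 66.5% of all Axl UMIs of the Control and 70.8% of the YAP5SA libraries, but in the Control group 4 of 25, 465 of 548 and 191 of 419 by library (enriched, tissue-2, tissue-3). Axl in fibroblasts measured 360 ± 142 CPM in the Control and 332 ± 72.8 CPM in the YAP5SA libraries (SD, n = 3). The groups overlapped and the log2 fold change was 0.12 ± 0.69 (SE, edgeR adjusted p = 0.9998). Control tissue-3 fibroblasts were high at 436 CPM, Control tissue-2 low at 197 CPM, and the Control enriched value of 447 CPM came from 10 cells and 4 UMIs. In macrophages Axl was 57.8 ± 28.0 CPM (n = 2) against 35.7 ± 7.81 CPM (n = 3), and in smooth muscle cells 150 ± 37.5 against 137 ± 10.8 CPM.

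The genotype effect on Axl was larger in cardiomyocytes than in fibroblasts by 3.10 ± 0.53 on the log2 scale (SE, 6 libraries in both classes, edgeR adjusted p = 6.67e-07 for the difference), and larger than in macrophages by 3.52 ± 0.51 (5 libraries, edgeR adjusted p = 1.74e-05). The same held for Gas6, by 2.17 ± 0.51 against fibroblasts (edgeR adjusted p = 0.000653) and 2.11 ± 0.43 against macrophages (edgeR adjusted p = 0.00143). The 6 libraries include the Control enriched one with its 10 fibroblasts, and these fits let no class differ by preparation. In the tissue libraries alone the differences from fibroblasts were 3.08 for Axl (edgeR adjusted p = 0.0129) and 2.37 for Gas6 (0.0242). Those from macrophages were 3.75 (edgeR adjusted p = 0.000153) and 2.48 (0.00102). Of all genes, 17.4% differed in effect between cardiomyocytes and fibroblasts and 12.9% between cardiomyocytes and macrophages. Between fibroblasts and macrophages 0.266% of genes and no member differed by edgeR. Of the 5 members 3, Axl, Mertk and Pros1, had a p under 0.05 before adjustment. The share of all genes under that p was not counted, so this number is not read as a result. DESeq2 was not run on these differences. Tyro3 and Mertk, at 3.05 ± 1.32 and 2.07 ± 0.91 between cardiomyocytes and fibroblasts, did not pass (edgeR adjusted p = 0.0904 and 0.0956). The Gas6 difference from fibroblasts was lost without Control tissue-3 (1.38, edgeR adjusted p = 0.105).

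In most of the other classes the Gas6 estimate lay below 0, without passing the test. In fibroblasts Gas6 measured 0, 112 and 258 CPM in the Control enriched and tissue libraries, the first from 10 cells, where 3 UMIs would make 335 CPM. The YAP5SA enriched and tissue libraries measured 74.6, 123 and 91.0 CPM, within the Control range (log2 fold change -0.61 ± 0.62 SE). In macrophages it measured 359 and 507 CPM in the Control tissue libraries and 251, 299 and 235 CPM in the YAP5SA enriched and tissue libraries, groups that did not overlap, at a log2 fold change of -0.86 ± 0.39 (SE, edgeR adjusted p = 0.499). In endocardial cells, the lining of the heart chambers, it measured 1241, 668 and 765 CPM against 548, 321 and 337 CPM, again without overlap, at a log2 fold change of -1.24 ± 0.35 (SE, edgeR adjusted p = 0.703). In smooth muscle cells it measured 266, 198 and 239 CPM against 118, 107 and 49.4 CPM (-1.49 ± 0.52 SE, edgeR adjusted p = 0.873). Groups that did not overlap were found for 35.9% of all tested genes in macrophages, 10.5% in endocardial and 10.7% in smooth muscle cells. The YAP5SA sums rest on 153 endocardial and 82 smooth muscle cells. The Control enriched, tissue-2 and tissue-3 sums rest on 15, 28 and 287 endocardial and 22, 28 and 88 smooth muscle cells, and the 1241 CPM of the enriched library on 29 UMIs.

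In endothelial cells Gas6 was 207 ± 61.3 CPM in the Control and 118 ± 7.98 CPM in the YAP5SA libraries (SD, n = 3), with a log2 fold change of -0.96 ± 0.33 (SE, edgeR adjusted p = 0.358). In monocytes it was 163 ± 156 CPM (n = 2) and 44.3 ± 17.5 CPM (n = 3), where the Control libraries themselves stood at 53.4 and 274 CPM. Without Control tissue-2, which leaves tissue-3 as the lone Control library and assumes that it varies like the others, edgeR called Gas6 in macrophages (log2 fold change -1.14, adjusted p = 0.00388), and Gas6 (-2.85, 3.17e-06) and Axl (-1.84, 0.00104) in monocytes. Epicardial cells were the exception in sign, with 1009 ± 500 CPM of Gas6 in the Control (n = 2) and 1278 ± 343 CPM in the YAP5SA libraries (n = 3), a log2 fold change of 0.55 ± 0.45 (SE, edgeR adjusted p = 0.927).

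Across clusters Gas6 was highest in EpiC in both genotypes. In the Control hearts CF1, EndoC and Mac2 followed at 917 ± 513, 891 ± 307 and 627 ± 4.52 CPM, and these 4 clusters did not differ from their neighbours beyond the spread, while Mac2 stood above Mac1 by more than it. In the YAP5SA hearts EpiC stood above the next cluster by more than the spread, and CF1 (499 ± 124 CPM), Mac2 (472 ± 25.9), EndoC (402 ± 126) and YAP5SAcm (390 ± 138) followed, each within the spread of the next. Among fibroblasts Gas6 was uneven: CF1 had 499 CPM in YAP5SA hearts while CF2, CF3 and CF4 had 81.0, 79.0 and 37.5 CPM. YAP5SAcm held rank 12 of 16 clusters in the Control and rank 5 of 17 in the YAP5SA hearts.

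**Figure D4:**
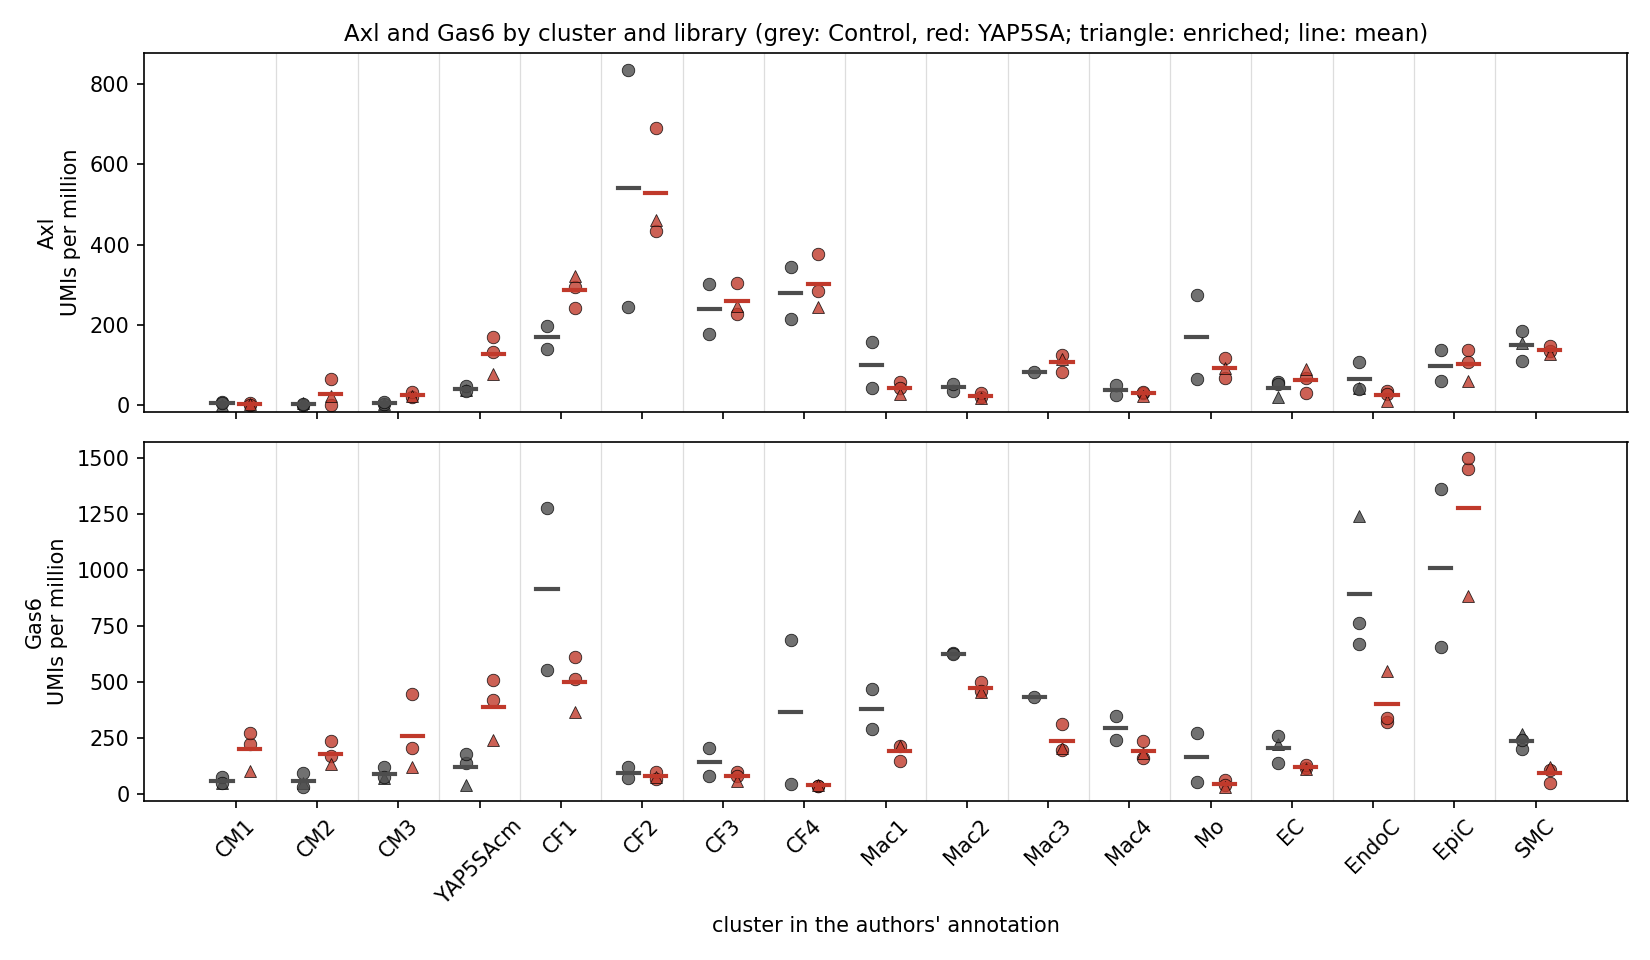
Axl (top) and Gas6 (bottom) in CPM for each library and cluster of at least 10 cells, grey for Control, red for YAP5SA, triangles for enriched libraries and lines for means. Axl is highest in the fibroblast clusters, above all CF2, and Gas6 in EpiC, CF1, EndoC and Mac2, while CM1 to CM3 and YAP5SAcm show the higher YAP5SA values of Gas6.

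Axl was highest in CF2 in both genotypes, at 540 ± 418 CPM in the Control (n = 2) and 529 ± 140 CPM in the YAP5SA libraries (n = 3). In the YAP5SA hearts CF2 exceeded the next cluster, CF4 at 301 ± 67.9 CPM, by more than the spread, and CF3 at 259 ± 40.2 CPM exceeded SMC. From SMC at 137 CPM down through YAP5SAcm, Mac3, EpiC, Mo, EC, Mac1, Mac4, CM2, CM3 and EndoC to Mac2 at 22.5 CPM, each cluster lay within the spread of its neighbour. CM1 came last at 3.18 CPM. In the Control hearts the sole step beyond the spread lay between Mac4 at 37.0 CPM and CM3, CM1 and CM2 at 3.91, 3.69 and 2.38 CPM.

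Mertk was highest in macrophages and smooth muscle cells. Macrophages measured 59.4 and 29.8 CPM in the Control tissue libraries and 97.9, 84.0 and 116 CPM in the YAP5SA enriched and tissue libraries. The groups did not overlap, but the log2 fold change of 0.90 ± 0.37 (SE) did not pass (edgeR adjusted p = 0.461). After thinning to 1000 UMIs, 6.05% (exact Clopper-Pearson 95% interval 3.56 to 9.51) and 5.06% (1.40 to 12.5) of Control and 9.11% (7.58 to 10.8), 7.84% (6.47 to 9.38) and 10.1% (8.99 to 11.4) of YAP5SA macrophages had a Mertk UMI, so the intervals overlapped. Macrophages made up 10.1% of Control and 47.3% of YAP5SA cells, and the share of all Mertk UMIs that came from them was 25.3% in Control and 87.2% in YAP5SA libraries. The Control share differed widely between libraries: macrophages gave 0 of 19 Mertk UMIs in the enriched, 39 of 66 in the tissue-2 and 5 of 89 in the tissue-3 library, against 259 of 320, 251 of 280 and 765 of 863 in the YAP5SA enriched and tissue libraries. The parts of dissociation, enrichment and genotype in both shares were not tested.

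By cluster, Mertk in YAP5SA hearts was 118 ± 17.5 CPM in Mac2, 104 ± 23.9 in Mac3, 101 ± 24.9 in Mac1, 91.4 ± 52.3 in SMC and 85.8 ± 14.6 in Mac4, each within the spread of the next. Monocytes followed at 51.8 ± 18.2 CPM, below Mac4 by more than the spread. In the Control hearts SMC came first at 68.6 ± 79.3 CPM, with 155, 0 and 50.4 CPM in the enriched, tissue-2 and tissue-3 libraries, where 3 UMIs in the 28 cells of tissue-2 would make 66.2 CPM. Of 3110 macrophages of the YAP5SA tissue-2 library, 626 had a Mertk UMI, 224 an Axl UMI and 67 both.

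Pros1 was spread over fibroblasts, endothelial, endocardial and smooth muscle cells and Mac2. In fibroblasts it measured 335, 96.0 and 73.1 CPM in the Control enriched and tissue libraries, the first from 10 cells, and 125, 129 and 132 CPM in the YAP5SA libraries (log2 fold change 0.36 ± 0.58 SE, edgeR adjusted p = 0.9998). In endothelial cells it was 117 ± 46.2 and 117 ± 14.3 CPM (SD, n = 3), and in endocardial cells 74.9 ± 65.1 and 176 ± 37.0 CPM, with a log2 fold change of 0.77 ± 0.53 (SE; edgeR adjusted p = 0.936). In macrophages it was 74.5 ± 12.8 CPM (n = 2) and 59.7 ± 4.96 CPM (n = 3), groups that did not overlap (log2 fold change -0.33 ± 0.32 SE). In YAP5SA hearts CM1 to CM3 and YAP5SAcm stood at 1.63 to 10.4 CPM and EpiC at 15.1 CPM. Monocytes, next above at 50.1 CPM, stood apart from EpiC by more than the spread.

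Tyro3, with 121 UMIs in 21706 cells, had most of its UMIs in fibroblasts, with 75.0% of its Control and 83.5% of its YAP5SA UMIs in that class. By library the Control share was 26 of 27 UMIs in tissue-2 and 1 of 9 in tissue-3, and the enriched library had none. Fibroblasts measured 0, 10.99 and 2.28 CPM in the Control enriched and tissue libraries and 2.72, 11.2 and 9.25 CPM in the YAP5SA libraries. The groups overlapped and the log2 fold change was 0.24 ± 0.58 (SE, edgeR adjusted p = 0.9998). The 0 of the Control enriched library came from 10 cells, where 3 UMIs would make 335 CPM. In macrophages Tyro3 had 0 UMIs in the Control and 2 in the YAP5SA libraries.

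**Figure D5:**
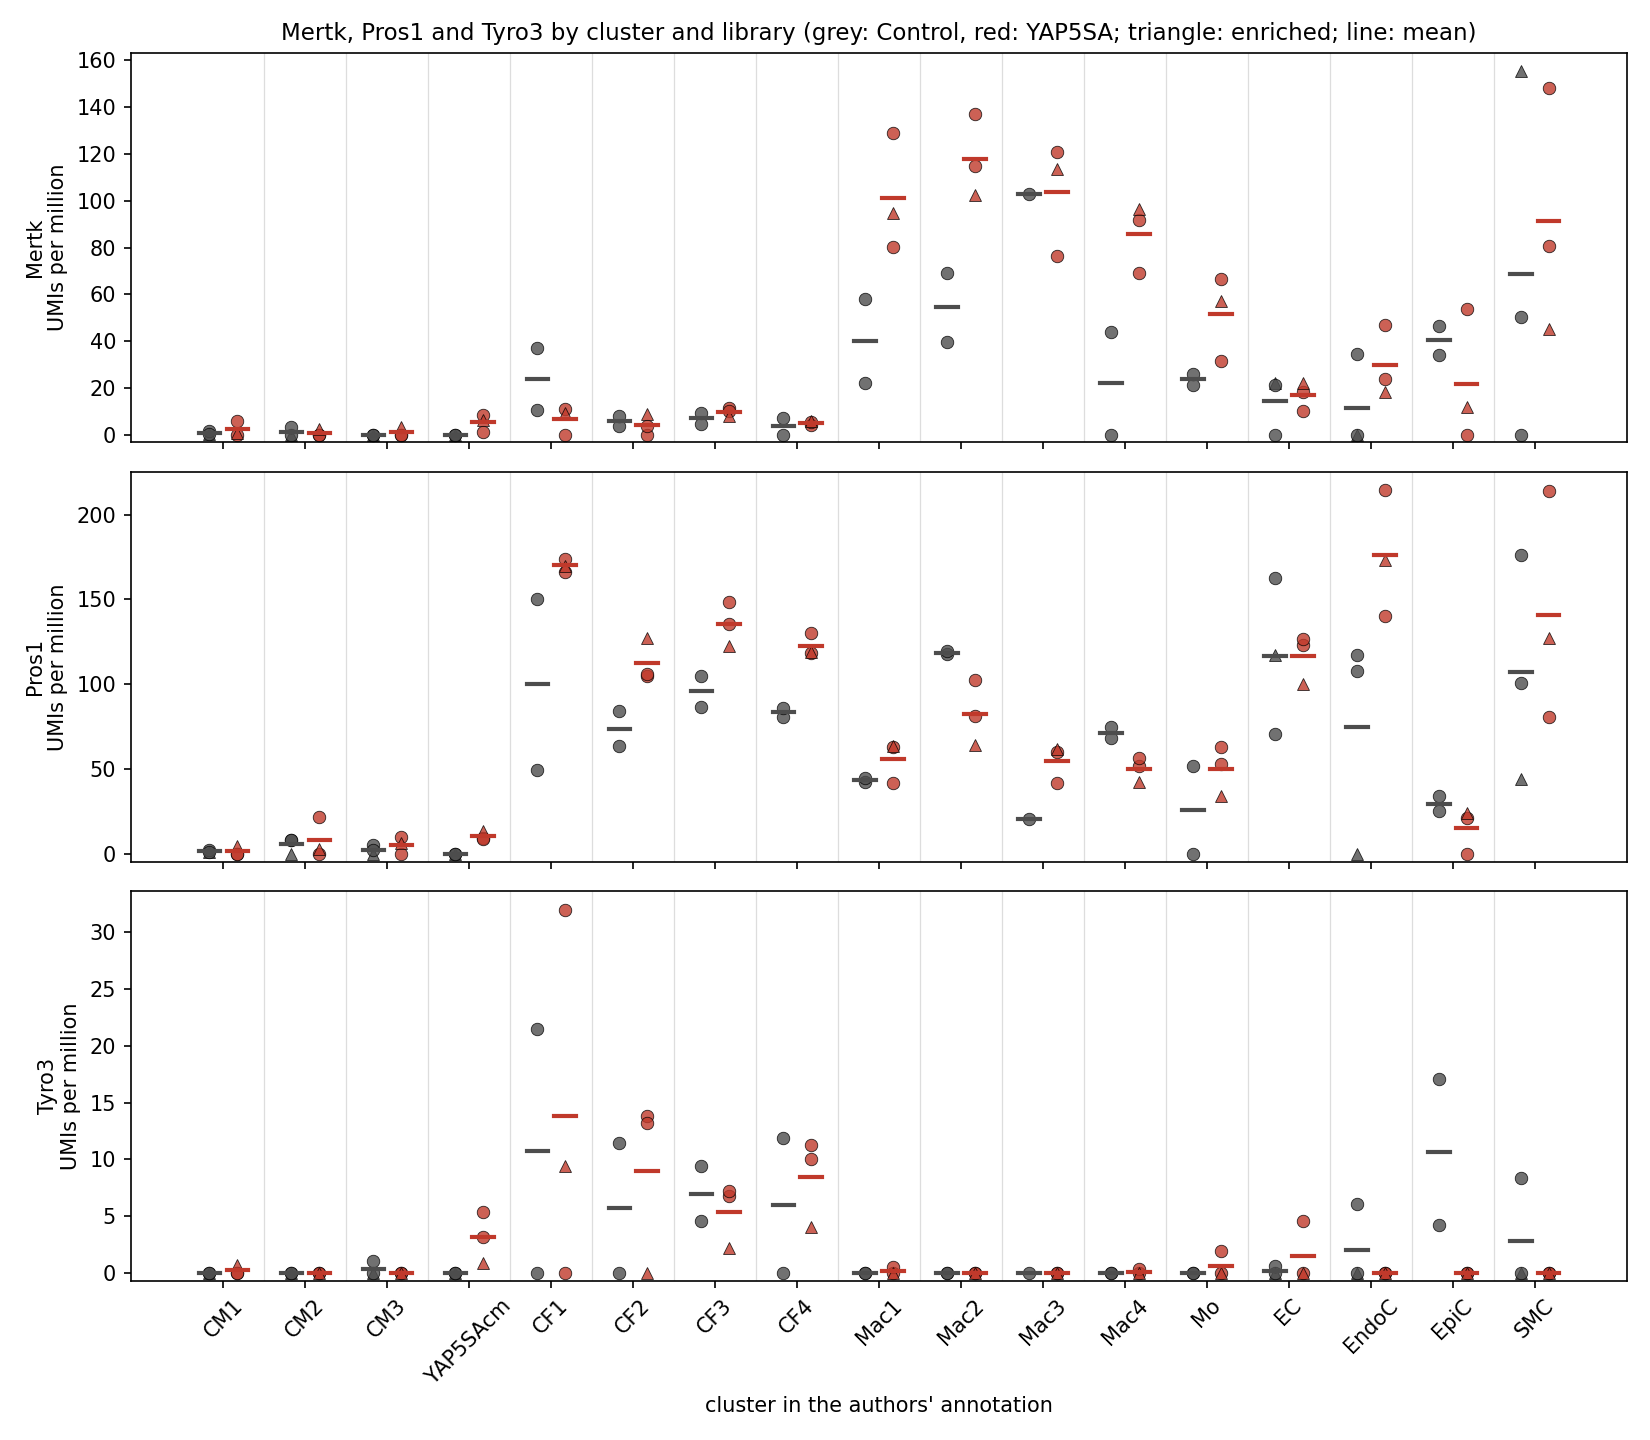
Mertk, Pros1 and Tyro3 in CPM for each library and cluster of at least 10 cells, grey for Control, red for YAP5SA, triangles for enriched libraries and lines for means, each panel with its own axis. Mertk stands high in Mac1 to Mac4 and SMC, Pros1 in fibroblasts, EC, EndoC and SMC, and Tyro3 in CF1 to CF4.

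The genes whose pattern over the 17 clusters was most like each member were found by Pearson's r of log2 mean CPM among 11796 genes. For Axl these were Fam149a (r = 0.92), Lpar1 (0.92), a lysophosphatidic acid receptor, and Elovl6 (0.90), a fatty acid elongase. For Tyro3 they were the matrix genes Pcolce, Col3a1 and Col6a2 (0.96 each), and for Mertk Casp1, Fes and Trpv4 (0.96, 0.95 and 0.95). For Pros1 they were Cnpy4, Upf3a and Sept11 (0.98, 0.98 and 0.96), and for Gas6 Slc39a8, March8 and Man2b2 at no more than 0.75. Clusters share their libraries, so these values describe likeness and carry no test.

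The wider pathway was read from 6 lists with 87 genes of apoptotic cell clearance and TAM signalling. The lists were chosen with earlier results of these data known, so they are not independent of the data. In cardiomyocytes 55 of the 87 genes were tested, 16 rose and 2 fell. Of all genes tested there 26.6% were called and 13.9% were called as higher, and the lists were not tested as sets. The filter keeps genes with enough counts in the YAP5SA libraries alone, so counts of rising genes and medians of the lists can lean upward. Among other receptors and bridges of clearance 25 genes were in the count table and 15 were tested. Of the tested genes 8 rose and none fell, with a median log2 fold change of 1.80 against 0.04 for all genes. They included Thbs1, which encodes the matrix bridging protein thrombospondin 1, at 5.58 ± 4.31 and 199 ± 107 scaled CPM (SD, n = 3; log2 fold change 5.31 ± 0.44 SE, edgeR adjusted p = 0.00215). Itgav (2.18, edgeR adjusted p = 0.00816) and Itgb5 (1.21, 0.0292), the subunits of the integrin αvβ5, rose with Mfge8 (2.17, 0.0169), the bridging protein that this integrin binds. This list also holds the macrophage genes Cd14 (log2 fold change 1.80, edgeR adjusted p = 0.0411) and C1qb (2.04, 0.0484), named after their values were seen, beside the macrophage marker sums given above.

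In the engulfment machinery 4 of 15 tested genes rose and none fell in cardiomyocytes (median log2 fold change 0.96), a share close to the 26.6% of all genes called. The counts of the 4 lists that follow are small, and none is read as set apart from that 26.6%. Elmo2, which with Dock1 activates Rac, rose by 3.14 ± 0.40 on the log2 scale (SE, edgeR adjusted p = 0.00477), from 3.29 ± 2.00 to 29.8 ± 8.81 scaled CPM. Ptk2, the focal adhesion kinase, rose by 1.5025, the adaptor Crk by 1.30 and Ucp2 by 1.72 (edgeR adjusted p = 0.0148, 0.0193 and 0.0416). Among genes of phosphatidylserine exposure and do-not-eat-me signals 2 of 8 rose and 1 fell (median 0.84). The lipid scramblase gene Ano6 rose by 3.03 ± 0.36 (SE, edgeR adjusted p = 0.00402) and the flippase gene Atp11a, whose product returns phosphatidylserine to the inner leaflet, by 2.55 ± 0.45 (edgeR adjusted p = 0.0106). Cd47, the do-not-eat-me signal read by Sirpa, fell by 0.84 on the log2 scale (edgeR adjusted p = 0.0466), from 113 ± 7.31 to 63.5 ± 6.39 scaled CPM.

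Of 10 tested signals downstream of TAM receptors 1 rose and 1 fell in cardiomyocytes (median 0.25). Tnfaip3, an inhibitor of NF-kappaB signalling, rose by 2.23 (edgeR adjusted p = 0.0257) and the adaptor Grb2 fell by 1.08 on the log2 scale (edgeR adjusted p = 0.0245). Of 3 tested partners of protein S in anticoagulation, Thbd, which encodes thrombomodulin, rose by 1.74 (edgeR adjusted p = 0.0304, median of the list 0.03). None of the 4 tested genes of ligand maturation, other TAM ligands and receptor shedding was called by edgeR (median 0.72).

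In fibroblasts, where 2.23% of all genes were called and 83 of 10727 fell, none of the 59 tested genes of these lists rose and 3 fell: Cd36, a scavenger receptor, by 2.28, Cd14 by 2.07 and the lipid exporter Abca1 by 2.36 on the log2 scale (edgeR adjusted p = 0.00541, 0.0195 and 0.00523). The Control fibroblast libraries were widely spread for these genes, at 298 ± 272, 78.6 ± 79.8 and 52.3 ± 42.7 scaled CPM (SD, n = 3), and overlapped with the YAP5SA libraries. Macrophage markers in fibroblasts summed to 0, 229 and 2359 CPM in the Control enriched, tissue-2 and tissue-3 libraries and to 305 to 527 CPM in the YAP5SA libraries, and their part in these falls was not tested. In macrophages 67 of the 87 genes were tested and none was called by edgeR.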

How the data were processed

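The authors deposited UMI counts per gene and cell, with a table of cells that gives the library, cluster name and the fraction of mitochondrial transcripts, per the file headers. Picard, STAR and Seurat 2.3.4 are named in the submitters' processing notes. Genome build, annotation and doublet removal are not given in the sources used here, and no doublet caller was run here. In 4 of the 6 libraries some overlapping genes are counted under joined names. These 860 names were merged with their parts (21202 features), and 1206 features found under 1 annotation only were not tested. No member is in a joined name.

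Counts were summed per class and library (at least 10 cells). The 17 clusters were grouped into 8 classes. edgeR 4.0.16 (R 4.3.3) fitted genotype and preparation by quasi-likelihood with TMM scaling and filterByExpr by genotype, with a threshold of 0.05 on the adjusted p. The choice of filter grouping was made after counts under filterByExpr by the design matrix had been seen, and that setting is reported as an alternative chosen after seeing the data. The difference of genotype effects between classes was fitted with the library as a block. DESeq2 1.42.0, other scalings, libraries left out and subsets of cells were alternatives. On simulated cardiomyocyte counts of 10313 genes, the fit recovered 50 of 50 genes changed by 3 on the log2 scale, 48 of 50 changed by 2, 40 of 50 changed by -2 and 5 of 50 changed by 1, with 5 false calls. The simulated counts had the same spread for every gene and no effect of preparation or cluster, and only genes above a count limit were changed. These rates therefore do not carry over to the real libraries. CPM is UMIs per 1000000 UMIs of the class, and scaled CPM uses the TMM factors.

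The members and gene lists were chosen with earlier results of these data known. Named genes were all members, the called genes of each list with the smallest p (at most 4 in cardiomyocytes and 2 in fibroblasts or macrophages), and for each member the 3 genes of highest r among genes of at least 200 UMIs. Cd14 and C1qb in cardiomyocytes fall outside that rule.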

Additional observations from a re-analysis of the deposited data

Results flagged for a closer look

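The genotype effect differed between cell classes by a test of the difference itself for the receptor Axl and its ligand Gas6. For Axl the effect in cardiomyocytes exceeded that in fibroblasts by 3.10 and that in macrophages by 3.52 on the log2 scale. For Gas6 the differences were 2.17 against fibroblasts and 2.11 against macrophages. Groups of 2 or 3 libraries were too small to be searched for outlying libraries.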

How the results depend on the processing

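Axl in cardiomyocytes kept its sign in all 18 alternatives and lost its call in YAP5SAcm alone (1.41) and outside YAP5SAcm (1.54). With 1 library left out it ranged from 3.33 to 3.81. Gas6 ranged from 1.31 to 1.76 with 1 library left out, and lost its call without Control tissue-3, YAP5SA tissue-1 or YAP5SA tissue-2. It also lost its call outside YAP5SAcm (1.25) and in CM1 (1.29), CM2 (1.29), CM3 (1.18) and YAP5SAcm (1.41) alone. These sets hold fewer cells, and the cause of the losses was not tested. The members called were 0 in each of these sets of cells, and 1 to 3 with a library left out, against 2. Left-out libraries moved the members called to between 0 and 1 in macrophages and between 0 and 2 in monocytes. The class differences ranged, with a library left out, from 2.37 to 3.87 (Axl) and 1.38 to 2.84 (Gas6) against fibroblasts, and from 2.95 to 4.39 (Axl) and 1.79 to 2.56 (Gas6) against macrophages.

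Genes called in cardiomyocytes numbered 2894, 4516 with library totals (4085 higher and 431 lower, against 1519 and 1375), 1776 in tissue libraries, 17 outside YAP5SAcm, 911 in marker-free cells, and 2, 84, 16 and 462 in CM1, CM2, CM3 and YAP5SAcm alone. They ranged from 203 (without YAP5SA tissue-2) to 4608 (without Control tissue-2) with a library left out, and each of the 6 libraries moved the count by over 1.5 times. Over all alternatives the counts ranged from 0 to 1166 in fibroblasts, 1082 in macrophages, 625 in monocytes, 249 in endothelial, 22 in endocardial, 161 in epicardial and 16 in smooth muscle cells. With filterByExpr by the design matrix, chosen after seeing the data, 79 genes were called in macrophages and 14 in epicardial cells, with the same number of members called in every class.

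Signs turned in uncalled values. Axl in fibroblasts was -0.015 with library totals, -0.018 in tissue libraries, -0.016 with at least 30 cells, -0.018 in CF3 and -0.13 in CF2 (-0.24 to 0.77 with a library left out). Axl was 0.14 in Mac4 (with a library left out, macrophages -1.16 to 0.012, monocytes -1.84 to 0.62) and -0.33 in endothelial tissue libraries (-0.34 to 1.16). Tyro3 in fibroblasts was -0.11 without the preparation term, and ranged from -0.11 to 1.90 with a library left out. Gas6 in fibroblasts ranged from -1.22 to 0.042. Pros1 was 0.24 in Mac1, and in endothelial cells -0.025 with no filter, -0.0051 with unmerged names and -0.26 to 0.23 with a library left out. The Gas6 difference between fibroblasts and macrophages was 0.0497 in tissue libraries (-0.50 to 0.26). The cause of these turns was not tested.

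No paired analysis was possible because the cell table numbers the YAP5SA tissue libraries 1 and 2 and the labels 2 and 3. Tyro3 and Mertk in cardiomyocytes are limited by depth, with 1 Control and 10 YAP5SA UMIs of Tyro3.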
